A study of Mus musculus with 6 samples.

Results

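Wnt ligands were examined in sorted mouse mammary cells from before birth and from adulthood. The set held 9 genes, Wnt2, Wnt4, Wnt5a, Wnt5b, Wnt6, Wnt7b, Wnt10a, Wnt10b and Wnt11. They were chosen by name, with earlier results of these data known, and 10 of the 55681 array probes were matched to one of them. These 9 were set against 20660 genes that could be named on the array. The other 10 mouse Wnt genes on the array are given beside them.

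RNA had been taken from 3 samples of E18.5 fetal mammary cells, gated CD31-CD45-Ter119-EpCAM++CD49f+, and from 3 samples of adult basal mammary cells, gated CD31-CD45-Ter119-BP-1-EpCAM+CD49f+, from mice of 8–12 wk. All mice were C57Bl6J females, and the labels give no transgene or treatment. Adult glands had been digested overnight and fetal glands for a shorter time. Each sample was hybridized alone, with Cy3 dye, to a SurePrint G3 Mouse GE array, on which the brightness of a spot reports the amount of labelled cRNA bound by its probe. The gates differed in EpCAM level as well as in age, so that stage, sorted fraction and digestion cannot be told apart, and in sorted bulk samples fewer cells of a type and less RNA per cell cannot be told apart either. The labels call the samples of a population biological replicates but do not say from how many animals each came.

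Wnt proteins are secreted, lipid-modified ligands that act over short distances. They bind Frizzled receptors together with Lrp5 or Lrp6 to stabilize β-catenin, which then works with TCF and LEF factors on target genes, or they act without β-catenin through Frizzled, Ror and Ryk receptors on cell polarity and movement. In the mammary gland Wnt signals are known for their part in the embryonic placode, in side branching under progesterone and in the upkeep of basal stem cells.

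The 9 ligands did not move as a block. Wnt10a and Wnt5a had higher signals in adult basal cells and passed the test, whereas none of the ligands passed it toward the fetal cells. The test was limma's moderated comparison over the 20448 probes that remained after probes low in both populations were removed, and a call needed a Holm-adjusted p, which bounds the chance of any false call among all probes, of at most 0.05 and a change of at least 2-fold. By the less strict Benjamini-Hochberg adjustment, which bounds the share of false calls, Wnt11 and Wnt5b also passed as higher in the adult basal cells and Wnt6 as higher in the fetal cells. Wnt4, Wnt10b and Wnt7b did not pass by their main probe, and Wnt2 stayed at background level on all 6 arrays.

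The sequence just before the start site is shown for 4 ligands that differed in direction, Wnt6 and Wnt4 with higher fetal means and Wnt11 and Wnt5b with higher adult means. Each window holds the 250 bases upstream of an annotated start, 5′ to 3′ on the strand of the gene, as given by RefSeq for the GRCm38.p6 assembly. Capitals mark GC boxes (GGGCGG), TCF/LEF words (CTTTG followed by AA, AT, TA or TT) and TATA words (TATAAA), searched on both strands, and neighbouring matches run together.
Wnt6, chr1:74771642-74771891, plus strand: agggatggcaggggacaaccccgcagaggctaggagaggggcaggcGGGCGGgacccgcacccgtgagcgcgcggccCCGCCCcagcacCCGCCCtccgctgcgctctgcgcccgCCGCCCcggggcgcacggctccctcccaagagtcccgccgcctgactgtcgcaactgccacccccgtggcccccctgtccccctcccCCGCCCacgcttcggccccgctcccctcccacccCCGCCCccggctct
Wnt4, chr4:137277385-137277634, plus strand: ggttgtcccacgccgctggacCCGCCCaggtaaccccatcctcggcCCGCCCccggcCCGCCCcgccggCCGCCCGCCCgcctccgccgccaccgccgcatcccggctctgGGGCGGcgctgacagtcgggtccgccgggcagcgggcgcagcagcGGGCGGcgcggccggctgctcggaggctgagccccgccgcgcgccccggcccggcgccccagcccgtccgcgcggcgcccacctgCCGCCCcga
Wnt11, chr7:98834862-98835111, plus strand: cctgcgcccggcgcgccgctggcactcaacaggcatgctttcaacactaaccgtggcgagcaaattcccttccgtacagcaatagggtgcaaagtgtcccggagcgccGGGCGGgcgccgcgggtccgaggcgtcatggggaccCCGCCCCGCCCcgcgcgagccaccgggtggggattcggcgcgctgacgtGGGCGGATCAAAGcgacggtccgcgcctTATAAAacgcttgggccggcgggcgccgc
Wnt5b, chr6:119544348-119544597, minus strand: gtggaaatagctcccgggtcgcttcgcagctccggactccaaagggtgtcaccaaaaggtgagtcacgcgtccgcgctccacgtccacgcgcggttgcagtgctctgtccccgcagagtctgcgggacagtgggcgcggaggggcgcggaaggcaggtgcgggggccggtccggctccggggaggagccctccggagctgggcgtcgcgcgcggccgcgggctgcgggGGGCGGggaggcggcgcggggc
The Wnt6 window held 6 GC boxes and had a GC content of 79.6%, and the Wnt4 window held 8 at 85.2%. The Wnt11 window held 4 GC boxes, 1 TCF/LEF word directly beside one of them and 1 TATA word, at a GC content of 70.8%. In the Wnt5b window a single GC box was found, at a GC content of 75.2%. Among 32851 windows of the same length, 32.7% held a GC box, 14.8% a TCF/LEF word and 12.4% a TATA word. The RefSeq windows covered 6 of the 9 ligands, with 9 start sites in all. Wnt5a, Wnt7b and Wnt10a were not among them. A second Wnt11 start and the Wnt10b start held none of these words, the Wnt2 start held 1 GC box, and of the other Wnt5b starts one held none and one held 2 GC boxes and 1 TCF/LEF word. The array probes do not report which start was used.

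The ligands that were brighter in the adult basal cells are described first. Wnt10a is a ligand of the β-catenin branch known from skin appendages, teeth and the early mammary line. Its log2 signals, after quantile normalization, were 8.99, 8.57 and 9.14 in fetal replicates 1 to 3 and 12.24, 12.05 and 11.90 in the adult basal replicates. Every adult array lay above every fetal array, by a margin that far exceeded the spread within either population. The means were 8.90 ± 0.29 in fetal and 12.06 ± 0.17 in adult basal cells (SD, n = 3), an 8.94-fold higher signal in the adult cells, and the log2 fold change of fetal over adult was −3.16 (SE 0.17, limma Holm-adjusted p = 0.0049). It was the largest difference among the 9 ligands. On the slide that held fetal replicate 1 and adult basal replicates 1 and 3, the log2 fold change was −3.08, and on the slide with the other arrays it was −3.19. The call was lost when fetal replicate 1 or adult basal replicate 1 was left out, with a limma Holm-adjusted p of 0.085 and 0.055.

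Wnt5a acts mostly without β-catenin, through Ror2 and Frizzled receptors, and is known to restrain ductal growth in the mammary gland. The Wnt5a log2 signals were 10.74, 10.54 and 10.50 on the fetal arrays against 12.28, 12.09 and 12.41 on the adult basal arrays. The populations did not overlap, and both were tight. Mean signal was 10.59 ± 0.13 in fetal against 12.26 ± 0.16 in adult basal cells (SD, n = 3), which is 3.18-fold higher in the adult cells. The log2 fold change was −1.67 (SE 0.13), and its limma Holm-adjusted p of 0.047 lay just inside the threshold. It fell outside it in 12 of 17 tested alternatives, among them the deposited normalized values, slide as a block (limma Holm-adjusted p = 0.070) and all leave-one-out fits except that without adult basal replicate 2, where the limma Holm-adjusted p ran from 0.28 to 0.65. The log2 fold change stayed between −1.76 and −1.55, and was −1.61 and −1.57 on the single slides.

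Wnt11, which is known for cell movements in the embryo and for kidney branching, gave log2 signals of 9.25, 9.08 and 9.04 on the fetal arrays against 10.65, 11.22 and 10.74 on the adult basal arrays. Again the populations did not overlap. The fetal arrays lay close together, whereas adult basal replicate 2 stood above the other adult arrays. The means were 9.12 ± 0.11 and 10.87 ± 0.30 (SD, n = 3), with a log2 fold change of −1.75 (SE 0.17), or 3.36-fold higher in adult cells. It was −1.44 on the slide with fetal replicate 1 and −2.16 on the other, which held adult basal replicate 2. With a limma Holm-adjusted p of 0.21 Wnt11 was not called, and by Benjamini-Hochberg it passed (adjusted p = 7.5e-05).

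Wnt5b, the close paralogue of Wnt5a, showed a smaller difference. The Wnt5b log2 signals were 12.38, 12.79 and 12.33 on the fetal arrays against 13.18, 13.57 and 13.85 on the adult basal arrays. The nearest arrays of the populations, fetal replicate 2 and adult basal replicate 1, lay closer together than the lowest and highest arrays within either population. The log2 fold change was −1.03 (SE 0.20, 95% interval −1.51 to −0.56), a 2.04-fold difference close to the fold threshold, with a limma Holm-adjusted p of 1 and a Benjamini-Hochberg-adjusted p of 0.0031. It fell short of the fold threshold without adult basal replicate 3 (−0.87), fetal replicate 1 (−0.97) or fetal replicate 3 (−0.95).

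The ligands with higher fetal means were led by Wnt6, which is known from embryonic surface ectoderm. The Wnt6 log2 signals were 10.57, 10.44 and 10.93 on the fetal arrays against 8.26, 8.37 and 8.84 on the adult basal arrays. All fetal arrays lay above all adult arrays. Mean signal was 10.65 ± 0.25 in fetal and 8.49 ± 0.31 in adult basal cells (SD, n = 3), 4.45-fold higher in the fetal cells, with a log2 fold change of 2.15 (SE 0.19). Its limma Holm-adjusted p was 0.15 and its Benjamini-Hochberg-adjusted p was 5.7e-05. On the single slides the log2 fold change was 2.02 and 2.31. Wnt6 and Wnt10a are next to each other in the RefSeq gene order of chromosome 1, and their signals differed between the populations in opposite directions.

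Wnt4, the ligand through which progesterone drives side branching, was measured by a pair of probes. The main one, the brighter of the pair, gave 9.12, 8.99 and 9.07 on the fetal arrays against 8.01, 7.96 and 8.26 on the adult basal arrays, on the log2 scale. The other gave 6.16, 5.89 and 6.33 against 4.76, 4.90 and 5.09. Both probes were higher on every fetal array than on any adult array. The main probe had a log2 fold change of 0.98 (SE 0.12), or 1.97-fold, which is just under the fold threshold at a limma Holm-adjusted p of 0.88 and a Benjamini-Hochberg-adjusted p of 2.4e-04. The other had a log2 fold change of 1.21 (SE 0.15), or 2.31-fold, and passed only by Benjamini-Hochberg (limma adjusted p = 3.0e-04, Holm-adjusted p = 1). Its adult mean of 4.92 lay below the low-signal limit of 5.95, so that it entered the test through its fetal signal, and normexp background correction brought its log2 fold change to 0.50.

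Wnt10b, like Wnt10a a β-catenin ligand of the mammary line, gave log2 signals of 7.30, 7.13 and 7.12 on the fetal arrays against 6.30, 6.45 and 6.31 on the adult basal arrays. The populations were separate and narrow, and the difference was under 2-fold. Its log2 fold change was 0.83 (SE 0.10), or 1.78-fold higher in fetal cells, with a limma Benjamini-Hochberg-adjusted p of 3.2e-04. Normexp background correction brought the Wnt10b log2 fold change to 0.47. Thus Wnt10a and Wnt10b, which are paralogues, had fold changes of opposite sign. Wnt10b and Wnt1 are neighbours on chromosome 15, and the main Wnt1 probe had a log2 fold change of −0.15 (SE 0.12, limma Benjamini-Hochberg-adjusted p = 0.31).

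Wnt7b, known from lung and kidney development, was the only one of the 8 tested ligands described here whose populations overlapped. The Wnt7b log2 signals were 7.70, 7.50 and 7.39 on the fetal arrays against 7.14, 7.47 and 6.84 on the adult basal arrays. Adult basal replicate 2 lay among the fetal arrays. The log2 fold change of 0.38 (SE 0.18) had a 95% interval of −0.03 to 0.80 and a limma Benjamini-Hochberg-adjusted p of 0.098, so that a difference of up to 0.80 on the log2 scale could not be resolved from none. Wnt2, a ligand known from lung mesenchyme, had log2 signals between 1.62 and 1.82 on the 6 arrays, none of them well above background, and was not tested.

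**Figure D1:**
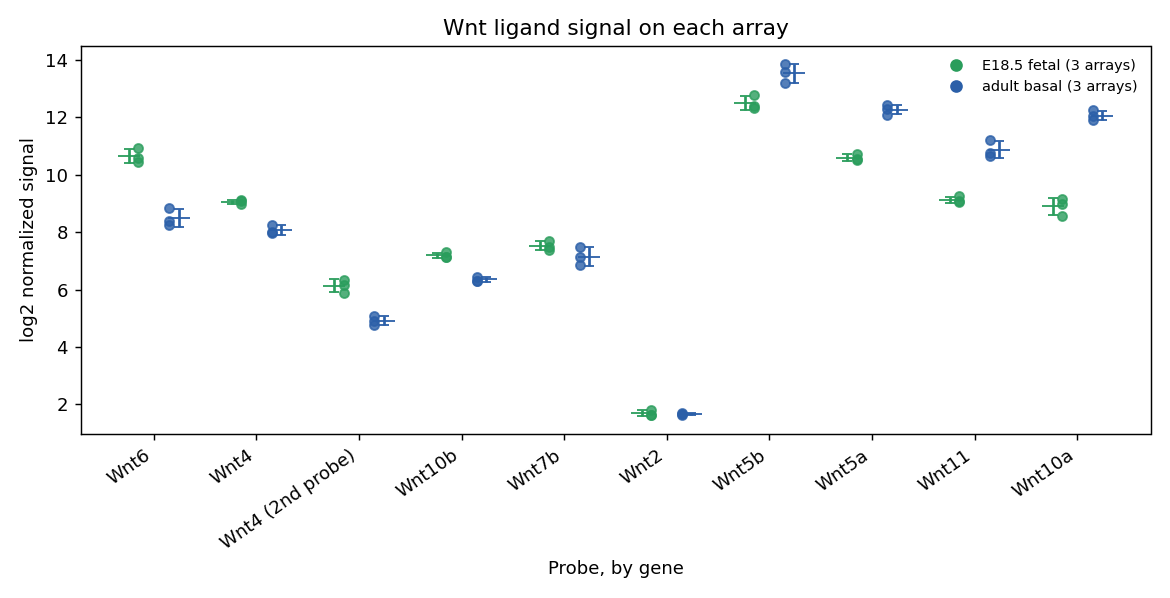
Log2 normalized signal of each Wnt ligand probe on each of the 6 arrays, with fetal arrays in green and adult basal arrays in blue, points for single arrays and bars for the mean ± SD of 3. The colours separate for every probe except Wnt7b and Wnt2, with green above blue for Wnt6, Wnt4 and Wnt10b and below it for Wnt5b, Wnt5a, Wnt11 and Wnt10a. Wnt2 is below background on all arrays, and heights of different probes are not comparable.

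Counted by main probe, 8 of the 9 ligands were tested. None of the 8 was called higher in fetal cells by Holm, where 6.03% of 15734 tested genes were, and 2 were called higher in adult basal cells, where 5.21% were. At an unadjusted limma p under 0.05, Wnt6, Wnt4 and Wnt10b passed toward fetal cells. Toward adult basal cells Wnt10a, Wnt5a, Wnt11 and Wnt5b did. No share over all genes was counted for this cut, so it is not read as a result about the ligands. By Benjamini-Hochberg with the same fold threshold, 1 of 8 was higher in fetal cells against 15.8% of all genes, and 4 of 8 were higher in adult basal cells against 13.9%. The arrays of the populations did not overlap for 7 of 8 ligands, as for 68.4% of all tested genes. The median absolute log2 fold change was 1.35 over the 8 ligands and 0.53 over all tested genes. It was 0.29 over the other tested Wnt genes and 0.91 over all 14 tested Wnt genes. The ligands were chosen with earlier results of these data known, so the larger value is not read as a result about Wnt genes. The signed medians were −0.33 over the 8 ligands and −0.04 over all tested genes, and the ligands ranged from −3.16 to 2.15. For 1 gene, exact permutation of 3 and 3 arrays cannot reach a 2-sided p under 0.1, and the adjusted p-values above rest on limma's pooling of the spread over probes.

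**Figure D2:**
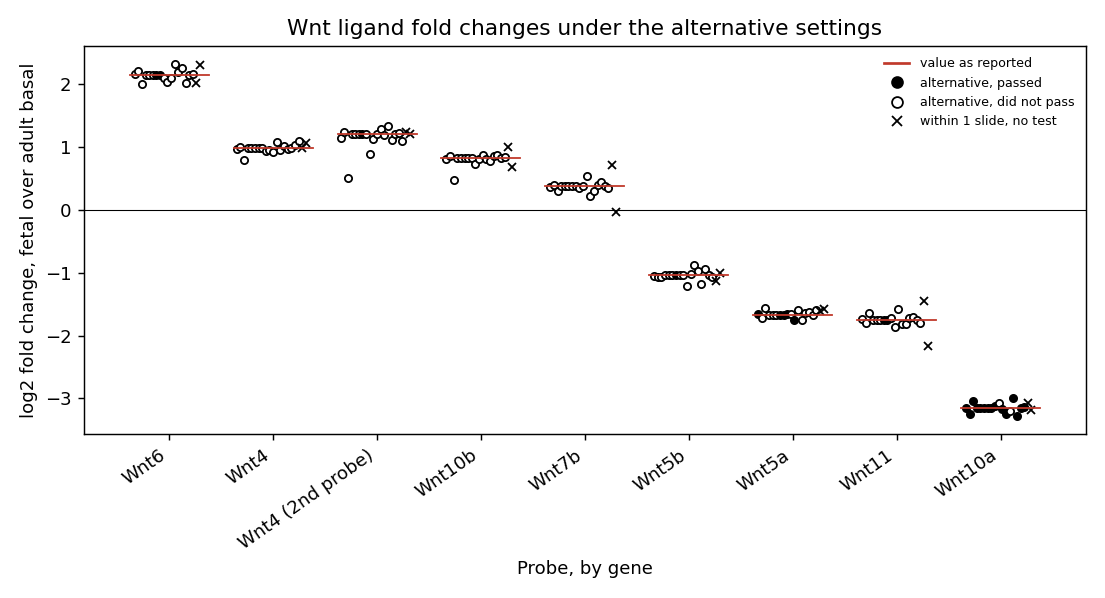
Log2 fold change of fetal over adult basal signal of each tested ligand probe under each alternative setting (points, filled where the setting called the probe, crosses for values within 1 slide with no test), with the reported value as a red line. Filled points are common for Wnt10a and few for the others, and only Wnt7b crosses 0, within 1 slide.

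Of the other 10 Wnt genes, 6 were tested, with a median log2 fold change of −0.16, and only Wnt9a passed by either adjustment. Wnt9a gave log2 signals of 4.20, 4.59 and 3.92 on the fetal arrays against 9.68, 9.65 and 9.55 on the adult basal arrays. The adult arrays were nearly identical, and the fetal probe was near background, well above it on only 2 of 3 arrays. Its log2 fold change was −5.39 (SE 0.17, limma Holm-adjusted p = 1.2e-04), and normexp background correction shrank it to −3.38, still called. All fetal signals lay below the low-signal limit of 5.95, so that the probe entered the test through its adult signal and the size of its fold change is uncertain. Wnt9a lies beside Wnt3a on chromosome 11, and Wnt3a was at background level on all 6 arrays. Wnt2b, Wnt3 and Wnt8a were too dim in both populations to be tested. Over all 19 Wnt genes, 14 were tested, and Holm called 0 higher in fetal and 3 higher in adult basal cells, against 6.03% and 5.21% of all tested genes.

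**Figure D3:**
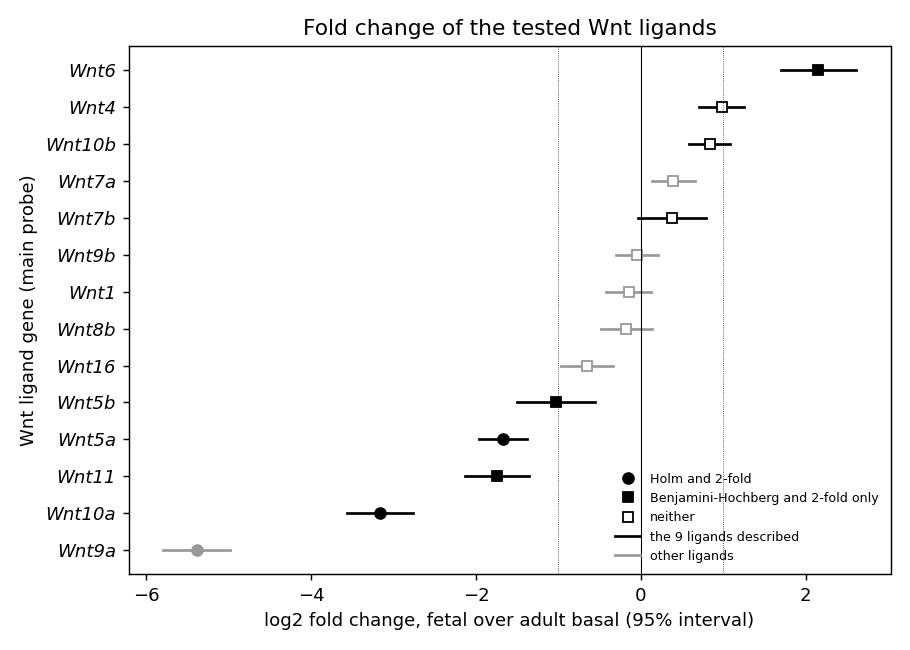
Log2 fold change of fetal over adult basal signal for the main probe of each of the 14 tested Wnt genes, with 95% intervals and dotted lines at 2-fold. The 9 ligands described (8 tested) are in black and the others in grey, and filled circles mark the Holm calls, which are Wnt9a, Wnt10a and Wnt5a, all on the adult side.

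Genes that make, carry and remove Wnt proteins gave a single call. Of 8 such genes, all tested, only Trabd2b, which encodes a membrane protease that cleaves and inactivates Wnts, was called. It was higher in adult basal cells, a direction in which 5.21% of all tested genes were called. Its log2 signals of 8.16, 8.08 and 8.03 in fetal cells rose to 10.70, 10.27 and 10.51 in adult basal cells, a log2 fold change of −2.40 (SE 0.13, limma Holm-adjusted p = 0.0058). Other Trabd2b probes gave −1.60 and −0.66, and the call was lost when the gene's probes were averaged and without any 1 of the fetal arrays or adult basal replicate 3 (limma Holm-adjusted p of 0.069 to 0.11), as well as with no low-signal filter (0.051). The median log2 fold change of the 8 genes was −0.35. Porcn, which attaches the lipid, was not called, and its populations overlapped (log2 fold change −0.34, limma Benjamini-Hochberg-adjusted p = 0.12). Wls, which escorts Wnts to the cell surface, was also not called, as its difference was under 2-fold. Every adult Wls signal lay above every fetal one (log2 fold change −0.91, or 1.88-fold, limma Benjamini-Hochberg-adjusted p = 2.5e-04).

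Secreted antagonists were split. Of 14 listed genes, 8 were tested, and 2 were called, both higher in the fetal cells, where 6.03% of all tested genes were. Sostdc1, an extracellular inhibitor of Wnt and BMP signals known from the mammary placode, had log2 signals of 12.76, 12.58 and 12.94 in fetal and 7.91, 7.82 and 7.80 in adult basal cells. It was 30.2-fold higher in fetal cells (log2 fold change 4.92, SE 0.12, limma Holm-adjusted p = 2.0e-05), and its other probe gave 4.33. Sfrp2, a secreted Frizzled-related protein that binds Wnts, had log2 signals of 10.78, 10.71 and 11.03 against 7.28, 7.34 and 6.99, a log2 fold change of 3.64 (SE 0.14, limma Holm-adjusted p = 4.7e-04). Both calls held in every tested alternative. The median over the 8 antagonists was 0.12, and by Benjamini-Hochberg 3 passed toward fetal and 2 toward adult basal cells, against 15.8% and 13.9% of all tested genes.

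R-spondins are secreted proteins that strengthen Wnt signals by sparing Frizzled receptors from turnover. Of 4, only 2 could be tested, and Rspo1 was called as higher in fetal cells, where 6.03% of all tested genes were. Rspo1 gave 8.49, 8.77 and 8.90 on the fetal arrays against 6.48, 6.31 and 6.40 on the adult basal arrays on the log2 scale. The fetal arrays all lay above the adult ones, at a log2 fold change of 2.32 (SE 0.13, limma Holm-adjusted p = 0.0066). The call was lost without adult basal replicate 1 or 3 or fetal replicate 2 or 3 (limma Holm-adjusted p of 0.057 to 0.12), and also with no low-signal filter (0.057) and with a replicate block (0.089). The log2 fold change was 2.23 or more without any 1 array and 1.69 under normexp.

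All 21 receptors and co-receptors on the list were tested, with 3 called higher in fetal and 1 higher in adult basal cells and a median log2 fold change of −0.19. Over all tested genes the shares called were 6.03% and 5.21%. Fzd9, a Frizzled receptor, had log2 signals of 12.23, 12.19 and 12.53 on the fetal arrays against 8.26, 7.85 and 7.39 on the adult basal arrays, a 22.4-fold difference (log2 fold change 4.49, SE 0.22, limma Holm-adjusted p = 0.0027). Fzd1, of the same family, differed the other way, with 9.72, 9.83 and 9.67 against 12.26, 12.50 and 12.28, a log2 fold change of −2.61 (SE 0.11, limma Holm-adjusted p = 9.3e-04). Thus the 2 called Frizzled genes did not share a direction. By Benjamini-Hochberg 4 receptors passed toward fetal and 3 toward adult basal cells, against 15.8% and 13.9% of all tested genes. Those not called by Holm were Lgr5 toward fetal cells (log2 fold change 2.64) and Fzd7 and Lgr4 toward adult basal cells (−2.20 and −1.10). Fzd7 narrowly missed the Holm threshold (limma Holm-adjusted p = 0.055). Ror1 and Ror2, receptors known for Wnt5a, were both higher in the fetal cells, in which the Wnt5a signal was the lower one. The log2 fold change was 2.89 for Ror1 (SE 0.10, limma Holm-adjusted p = 2.5e-04) and 2.28 for Ror2 (SE 0.15, limma Holm-adjusted p = 0.021). The adult Ror1 mean of 5.01 lay below the low-signal limit of 5.95, so that Ror1 entered the test through its fetal signal. The Ror1 and Fzd1 calls held in every tested alternative, with the Ror1 log2 fold change at 1.59 under normexp background correction. The Ror2 call was lost in 10 of 17, including every fit without 1 array (limma Holm-adjusted p of 0.053 to 0.23) and those with replicate number or slide as a block (0.054 and 0.12). That of Fzd9 was lost only without fetal replicate 1 (limma Holm-adjusted p = 0.055).

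Genes often read as targets of β-catenin did not move together. Of 8 listed, 6 were tested, with a median log2 fold change of −0.03, and 1 was called in each direction. Among all tested genes 6.03% were called higher in fetal and 5.21% higher in adult basal cells. Ccnd1, which encodes cyclin D1 and has many inputs besides Wnt, had log2 signals of 14.81, 14.82 and 14.82 in fetal and 8.57, 7.78 and 8.35 in adult basal cells (log2 fold change 6.59, SE 0.20, limma Holm-adjusted p = 7.9e-05). Nkd1, a feedback inhibitor of Wnt signalling, had 7.48, 7.43 and 7.97 against 11.52, 12.43 and 12.43 (log2 fold change −4.50, SE 0.27, limma Holm-adjusted p = 0.011). The Ccnd1 call held in every tested alternative, and that of Nkd1 was lost without any 1 of the fetal arrays or adult basal replicate 3 (limma Holm-adjusted p of 0.057 to 0.20) and with no low-signal filter (0.11). The main probe of Axin2, the most used readout, had a log2 fold change of −0.30 (SE 0.16) and was not called.

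**Figure D4:**
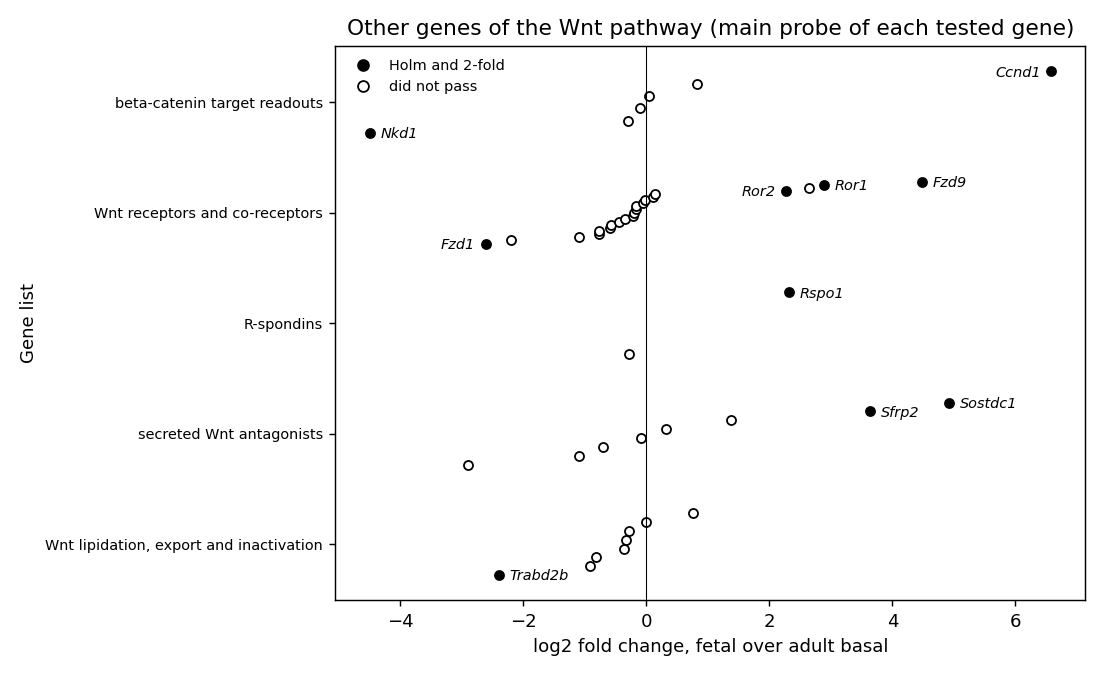
Log2 fold change of fetal over adult basal signal for the main probe of each tested gene in 5 lists of other Wnt pathway genes, with filled points and names for those called by Holm and 2-fold. Calls lie on both sides in the receptor and target lists, on the fetal side alone for antagonists and R-spondins, and on the adult side for Trabd2b.

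Marker genes were read in the same arrays to check the labels. Of 8 basal markers, 6 were called and all 6 were higher in the cells labelled adult basal, namely the smooth muscle genes Acta2 (log2 fold change −4.07), Cnn1 (−6.01), Myh11 (−8.63) and Mylk (−4.50), the oxytocin receptor gene Oxtr (−3.96) and the keratin Krt5 (−3.90). In that direction 5.21% of all tested genes were called. Summed over the list, basal marker signal was 54152 to 67383 on the fetal arrays and 770457 to 841984 on the adult basal arrays, with Acta2 the brightest gene. Krt14 was not called, and its log2 signal on adult basal replicate 2 (13.39) lay among those of the fetal arrays. The main Trp63 probe was not called either (log2 fold change −0.08), and its populations overlapped. The other Trp63 probe was higher in adult basal cells (log2 fold change −3.06, limma Holm-adjusted p = 1.9e-04). The luminal gene Elf5 was higher in fetal cells (log2 fold change 7.55), and Kit was called too, while the luminal keratin Krt19 was higher in adult basal cells by Benjamini-Hochberg (log2 fold change −1.22, limma adjusted p = 4.1e-04). The adult Elf5 mean of 5.10 lay below the low-signal limit of 5.95, so that Elf5 entered the test through its fetal signal. The summed luminal signal was 148089 to 189633 on fetal against 119295 to 125191 on adult basal arrays, with Krt18 the brightest gene. The hormone-sensing luminal list summed to 14496 to 21794 on fetal and 3182 to 3546 on adult basal arrays, with Cited1 the brightest. Of its 5 genes, Foxa1 (6.46) and Pgr (2.13) were called as higher in fetal cells, whereas the main probe of Esr1, well above background on only 1 of 3 fetal arrays, was higher in adult basal cells by Benjamini-Hochberg (log2 fold change −3.58, limma adjusted p = 8.6e-05). Among all tested genes, Holm called 6.03% as higher in fetal cells. Fetal means of Myh11 (5.72) and the main Esr1 probe (3.35) lay below the low-signal limit, so that both entered the test through their adult signal.

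Markers of cells other than mammary epithelium were also read, and some of these lists differed between the populations while others did not. The summed signal of 10 fibroblast and mesenchyme markers was 6314 to 7985 on fetal and 18156 to 28903 on adult basal arrays, led by Dcn, and 2 of the 10, Dcn (log2 fold change −3.78) and Pdgfrb (−4.34), were called as higher in adult basal cells, while none was higher in fetal cells. By Benjamini-Hochberg 5 of the 10 passed, all as higher in adult basal cells. In that direction 5.21% of all tested genes were called by Holm and 13.9% by Benjamini-Hochberg. All 10 were well above background in both populations. Fetal means of Pdgfrb (4.97) and of Twist2 (4.54), which passed by Benjamini-Hochberg, lay below the low-signal limit of 5.95. Both genes therefore entered the test through their adult signal. Endothelial markers summed to 10899 to 12756 and 11644 to 14031 and leukocyte markers to 29438 to 37770 and 27867 to 38118, in fetal and adult basal arrays respectively, led by Kdr and Itgam, and no gene of either list was called by Holm. By Benjamini-Hochberg 3 of 5 endothelial and 1 of 6 leukocyte genes passed as higher in adult basal cells, against 13.9% of all tested genes. As many had an unadjusted limma p under 0.05. No share over all genes was counted for this cut, so it is not read as a result about these lists. By main probe, the largest fold changes were those of Cdh5 (−2.70), Emcn (−1.79) and Vwf (−1.56), the 3 that passed, among endothelial and Lyz2 (−1.76) and Ptprc (−0.31) among leukocyte genes, on the log2 scale. Fetal means of Cdh5 (4.83), Emcn (4.19) and Lyz2 (4.85) lay below the low-signal limit, so that these genes entered the test through their adult signal. Most of the endothelial sum came from the brighter Kdr probe, whose log2 fold change was −0.04. Tek stayed at background level on the fetal arrays. Epidermal markers, led by Krt10, summed to 2188 to 2716 on fetal and 887 to 981 on adult basal arrays. Of 4 tested, Krt10 was called (log2 fold change 1.47), and by Benjamini-Hochberg Krtdap (4.11, well above background on 2 adult arrays) and Krt1 (1.95) also passed as higher in fetal cells, while neither Ivl probe was well above background in the adult cells. Among all tested genes 6.03% were higher in fetal cells by Holm and 15.8% by Benjamini-Hochberg. Adult means of Krtdap (3.59) and Krt1 (5.31) lay below the low-signal limit, so that both entered the test through their fetal signal. Adipocyte markers, led by Fabp4, ranged from 840 to 2245 on fetal and 1725 to 2094 on adult arrays, and their highest fetal sum was in fetal replicate 3, in which Adipoq reached a log2 signal of 8.17 against 5.62 and 3.99 on the other fetal arrays. On the adult basal arrays Adipoq stayed at background level, with log2 signals of 3.31, 4.11 and 3.50, and the populations overlapped. Neither Adipoq nor Fabp4 (log2 fold change −1.21) passed by Holm or Benjamini-Hochberg. Thus the basal and fibroblast sums were higher on the arrays on which Wnt10a, Wnt5a, Wnt11 and Wnt5b were higher, and the luminal, hormone-sensing and epidermal sums on those on which Wnt6 was, with the endothelial genes Cdh5, Emcn and Vwf on the adult side and with Krt19 and Esr1 on the opposite side to the sums of their lists. Their part in the Wnt differences was not tested.

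**Figure D5:**
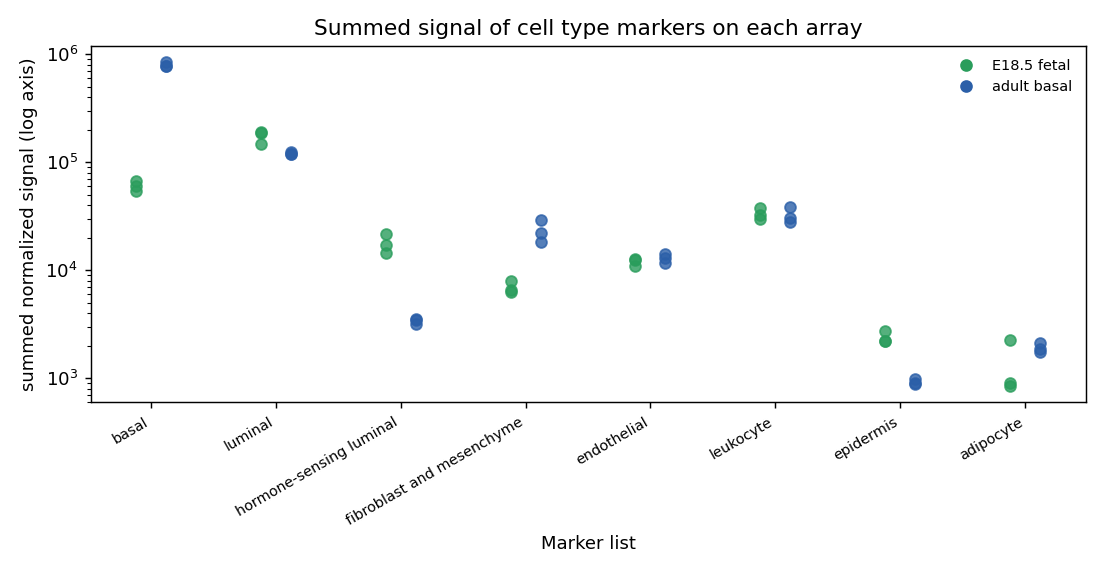
Sum of normalized linear signal over the probes of each marker list on each array, on a log axis, with fetal arrays in green and adult basal arrays in blue. The populations separate for the basal, luminal, hormone-sensing, fibroblast and epidermal lists and overlap for the endothelial, leukocyte and adipocyte lists.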

How the data were processed

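The authors deposited, for each array, the spot intensity given by Feature Extraction 11.0.1.1 per the labels, in which background had been subtracted, and a table of log2 values that the authors had quantile normalized in GeneSpring among a larger number of arrays. For RNA labelling, the methods name a whole-transcript kit and the labels the Low Input Quick Amp kit. Here control and outlier spots (104 to 326 per array) were left out, log2 processed signals were averaged over the spots of a probe, and quantile normalization was applied to the 6 arrays. No spot was saturated, and each array had 76.4% to 83.4% of its probes well above background. The number of arrays limits the precision.

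Scanner files carried accessions and no gene names. Unversioned accessions matched 27235 of 55681 probes to 20660 genes in the RefSeq table of GRCm38.p6. That table gave gene order and names, while the array design names another assembly. Probes whose mean lay below a log2 signal of 5.95 in both populations, the boundary between the lowest and middle of 3 k-means clusters (100 starts, seed 1), were removed, which left 20448 probes of 15734 genes. Population differences were fitted by lmFit and eBayes in limma 3.58.1 (R 4.3.3), with no covariate, on 3 fetal and 3 adult basal arrays grouped by their labels. The test used a fold threshold of 2 and an adjusted p threshold of 0.05. The fit was tested on simulated data. Tables and plots were made in Python 3.11.15 with pandas 2.3.3, numpy 2.4.6 and matplotlib 3.10.9.

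The main probe of a gene was its brightest tested probe over the 6 arrays. Named genes were the 9 ligands, the members of each other list that passed the Holm rule, and the 2 with the largest change where none passed. Porcn, Wls, Axin2, Wnt1, Wnt3a, the untested Wnt genes, Krt14, Krt19, Esr1, Krtdap, Krt1, Vwf, Tek and Ivl were chosen after their values were seen. The same holds for Fzd7, Lgr4, Lgr5, Trp63 and Twist2. The ligands and all lists were chosen with earlier results of these data known. Likeness to a ligand was the Euclidean distance between the 6 centred log2 values. Alternatives were other scaling, background correction, filters, adjustments, eBayes settings, offsets, blocks for replicate number and slide, and each array left out. Normexp (offset 50) was run on median spot intensity.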

Additional observations from a re-analysis of the deposited data

How the results depend on the processing

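The 2 Wnt ligand probes called, Wnt10a and Wnt5a, remained 2 with 75th percentile scaling and with an offset of 16. The count was 1, Wnt10a alone, with the deposited values, normexp, no low-signal filter, all probes with or without a gene match, the filter on probes well above background and slide as a block. It was 6 with Benjamini-Hochberg adjustment (Wnt10a, Wnt5a, Wnt11, Wnt5b, Wnt6 and the second Wnt4 probe, which is not a main probe and entered the test through its fetal signal) and 4 with trend and robust eBayes (Wnt10a, Wnt11, Wnt6 and Wnt5a). Leaving out 1 array gave 0 to 2, with 0 without fetal replicate 1 or adult basal replicate 1. Probes called among all tested fell from 2270 to 1182 with no low-signal filter and rose to 6133 with Benjamini-Hochberg. Leaving out 1 array gave 952 (without fetal replicate 1) to 2014 (without adult basal replicate 2). The cause was not tested.

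Arrays with the same replicate number did not deviate together (correlations of −0.03, 0.09 and 0.05 for numbers 1 to 3), so the numbers were not taken as pairs. With a replicate block 1302 probes were called, and the Wnt ligand count was 1, Wnt10a. Of the other Wnt pathway calls, Rspo1 (limma Holm-adjusted p = 0.089) and Ror2 (limma Holm-adjusted p = 0.054) were lost. Wnt7b reversed within the slide of fetal replicates 2 and 3 and adult basal replicate 2, at a log2 fold change of −0.027, and was 0.71 on the other slide. The other tested ligands kept their direction in every alternative. Wnt6 passed only with Benjamini-Hochberg and with trend and robust eBayes (limma Holm-adjusted p = 0.018). Scaling moved the median of all tested probes by less than 0.1. Dim probes near background, such as Wnt9a in fetal cells, have the least certain fold changes.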

Other observations

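The planar cell polarity genes, which orient cells within an epithelium and act in the β-catenin-independent branch of Wnt signalling, were read from a list of 10, of which 9 were tested. Of the 9, 2 were called, both as higher in the fetal cells, where 6.03% of all tested genes were. Celsr1, a core polarity cadherin, gave log2 signals of 13.41, 13.44 and 13.35 on the fetal arrays against 10.18, 10.04 and 9.84 on the adult basal arrays, a log2 fold change of 3.38 (SE 0.12, limma Holm-adjusted p = 2.3e-04). Prickle1, a cytoplasmic polarity protein, gave 13.28, 13.50 and 13.34 against 10.64, 11.14 and 10.75, a log2 fold change of 2.53 (SE 0.15, limma Holm-adjusted p = 0.010). The fetal and adult arrays did not overlap for either gene, and over the 9 tested genes the median log2 fold change was −0.10. The Celsr1 call held in every tested alternative, and the Prickle1 call was lost in 6 of 17, among them the fits without any 1 fetal array and without adult basal replicate 1 or 3 (limma Holm-adjusted p of 0.073 to 0.15).

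Among 15725 genes ranked by the distance between their centred log2 values over the 6 arrays, those nearest to Wnt6 were Rpa2 (distance 0.249), Edar (0.257) and Cntrob (0.271). Rpa2 encodes a subunit of a single-strand DNA binding complex, Edar the receptor for ectodysplasin in skin appendages and Cntrob a centriole protein. Nearest to Wnt10a were Pcsk5 (0.317), Ackr4 (0.376) and Adm2 (0.383), which encode a proprotein convertase, a scavenging chemokine receptor and a peptide hormone. These are descriptions over 6 arrays in which the difference between the populations dominates the distance.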
